A study of Mus musculus with 6 samples.

Results

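The genes described here are the lysozymes Lyz1 and Lyz2 and 3 further genes for secreted proteins with antimicrobial or related roles, Ear2, Chil3 and Lcn2. They were taken by symbol from a fixed list of 5 names, and all 5 were found among the 55487 genes of the count tables. Of the 5, 4 passed the filter on low expression, as did 11429 genes in all. The list was chosen by the difference in counts between the groups, already known when it was drawn up, so the levels and fold changes of these 5 genes are given as a description and no test is read for them.

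The study compared cultured mouse microglia with and without REV-ERBα, the nuclear receptor and transcriptional repressor of the circadian clock that is encoded by Nr1d1. Cortical mixed glia of CAG::CreERT2; Nr1d1 fl/fl pups at P1-3 were grown with GM-CSF, and the microglia were shaken off. The 3 Cre- libraries came from pups without the recombinase and the 3 Cre+ libraries from pups with it, and both groups received 1.5 μM 4-hydroxytamoxifen (4-OHT) for 2 days. Total RNA was sequenced in bulk. The floxed Nr1d1 alleles and the 4-OHT were thus shared by both groups. CreERT2, a Cre recombinase that 4-OHT activates, was driven by the ubiquitous CAG promoter and was present in the Cre+ group alone, so that the recombinase and the deletion of Nr1d1 cannot be told apart. The labels do not say whether the 3 replicates of a group came from separate animals, and p-values therefore measure only the spread between these samples.

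Lysozymes cut the peptidoglycan of bacterial cell walls. Lyz2, or lysozyme M, is the form of macrophages, granulocytes and microglia, and its neighbour Lyz1, or lysozyme P, is best known from the Paneth cells of the gut. Ear2 is an eosinophil-associated ribonuclease of the ribonuclease A family, also made by some macrophages. Chil3, or Ym1, is a chitinase-like protein without known chitinase activity and a common marker of alternatively activated macrophages. Lcn2, or lipocalin 2, binds the iron carriers of bacteria and is induced by inflammatory signals in many cells.

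Several of these genes have close copies in the mouse genome, which matters because a read must differ between copies to be counted on the right one. Lyz2 (ENSMUSG00000069516) lies at chr10:117277331-117282321 and Lyz1 (ENSMUSG00000069515) at chr10:117287797-117292868, both on the minus strand of GRCm38, with 5475 bases between them. Each has 4 exons. Their coding sequences were identical at 422 of 444 bases (95.0%). The first 150 coding bases, from GENCODE M21, show how the copies can be told apart, with the 14 bases that differ in capitals.
Lyz2: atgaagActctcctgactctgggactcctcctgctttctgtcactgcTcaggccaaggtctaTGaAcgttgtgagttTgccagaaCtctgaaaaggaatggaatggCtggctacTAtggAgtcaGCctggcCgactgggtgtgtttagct
Lyz1: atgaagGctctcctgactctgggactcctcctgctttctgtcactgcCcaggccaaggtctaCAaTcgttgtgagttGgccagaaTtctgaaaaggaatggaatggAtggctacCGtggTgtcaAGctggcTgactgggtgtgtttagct

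Ear2 (ENSMUSG00000072596), at chr14:44102654-44103534 on the plus strand with 2 exons, matched its paralog Ear1 at 445 of 465 aligned coding bases (95.7%). Over their first 150 coding bases Ear2 and Ear1 differed at 5, again in capitals.
Ear2: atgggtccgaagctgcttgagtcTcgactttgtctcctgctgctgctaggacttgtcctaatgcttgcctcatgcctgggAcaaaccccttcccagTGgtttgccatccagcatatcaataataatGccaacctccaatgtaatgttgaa
Ear1: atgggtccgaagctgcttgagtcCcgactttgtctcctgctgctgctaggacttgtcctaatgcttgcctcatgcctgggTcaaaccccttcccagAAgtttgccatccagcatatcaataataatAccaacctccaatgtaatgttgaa

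No stretch of 150 bases, the length of a read, was shared with another gene by the longest coding transcripts of Lyz1, Lyz2, Chil3 or Lcn2. For Ear2, 36 of 570 such stretches (6.32%) also occurred in Ear10, so a single read from them could not be placed by its own sequence. The reads were paired, and whether the other read of a pair could place it was not tested. Chil3 (ENSMUSG00000040809), at chr3:106147554-106167564 on the minus strand with 11 exons, matched Chil4 at 1139 of 1194 coding bases (95.4%). Lcn2 (ENSMUSG00000026822) lies at chr2:32384633-32388252 on the minus strand, with 6 exons. No exon of the 5 genes overlapped an exon of another gene.

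The libraries held 87545868 to 110909129 counts on genes, and the 10 most abundant genes took 30.2% to 31.8% of each. Nr1d1 itself was low, at 2.35, 1.20 and 1.64 CPM in the Cre- group against 1.00, 0.945 and 1.08 CPM in the Cre+ group, on the TMM-normalized scale used for all CPM values here. Its log2 fold change was -0.77 (standard error, SE, of 0.25, adjusted p = 0.094 by edgeR's quasi-likelihood test with Benjamini-Hochberg correction), short of the threshold of 0.05. The groups did not overlap, as was the case for 24.0% of all genes tested. The level of Nr1d1 was close to the filter on low expression, and 12 of the 16 alternative fits held a value for it. Counts per gene also include the exons outside the deletion. The microglial genes Trem2 and Csf1r were abundant, whereas P2ry12, Sall1 and Siglech, which mark microglia in the brain, stayed at or below 1.03 CPM, 0.903 CPM and 0.168 CPM in every library.

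Lyz2 was among the most abundant transcripts of these microglia, and its level was lower in each Cre+ library than in any Cre- library. Its count was 5409929, 5561394 and 5786132 in the Cre- libraries and 5462989, 4576983 and 4992026 in the Cre+ libraries. As a share of all counts on genes, this was 6.18%, 5.92% and 6.28% in the Cre- libraries and 4.93%, 4.88% and 4.88% in the Cre+ libraries. The raw counts of the groups overlapped, and the shares did not. The mean share was 6.12% ± 0.184 in Cre- and 4.90% ± 0.0256 in Cre+ microglia (SD, n = 3 each), a difference of -1.23 percentage points. These are bulk libraries, in which fewer cells of a type and less RNA per cell cannot be told apart. The 95% Wilson interval of each share was at most 0.0101 percentage points wide, so that the spread between libraries was far larger than the counting error. Such intervals cover counting error only, since PCR copies are not independent molecules.

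Ranked by count within each library, Lyz2 came 2 in every Cre- library, after the secreted phosphoprotein Spp1 and ahead of the ferritin heavy chain Fth1. In every Cre+ library it came 3, after both. Per length, in FPKM, it ranked 1 in the Cre- libraries and 2 in the Cre+ libraries. Its level was 62208, 60203 and 64684 CPM in the Cre- group against 49849, 49168 and 49520 CPM in the Cre+ group. The Cre+ mean was 79.4% of the Cre- mean, and the log2 fold change was -0.33 (SE 0.03). The coefficient of variation was 0.688% among the 3 Cre+ libraries and 3.60% among the 3 Cre- libraries.

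**Figure D1:**
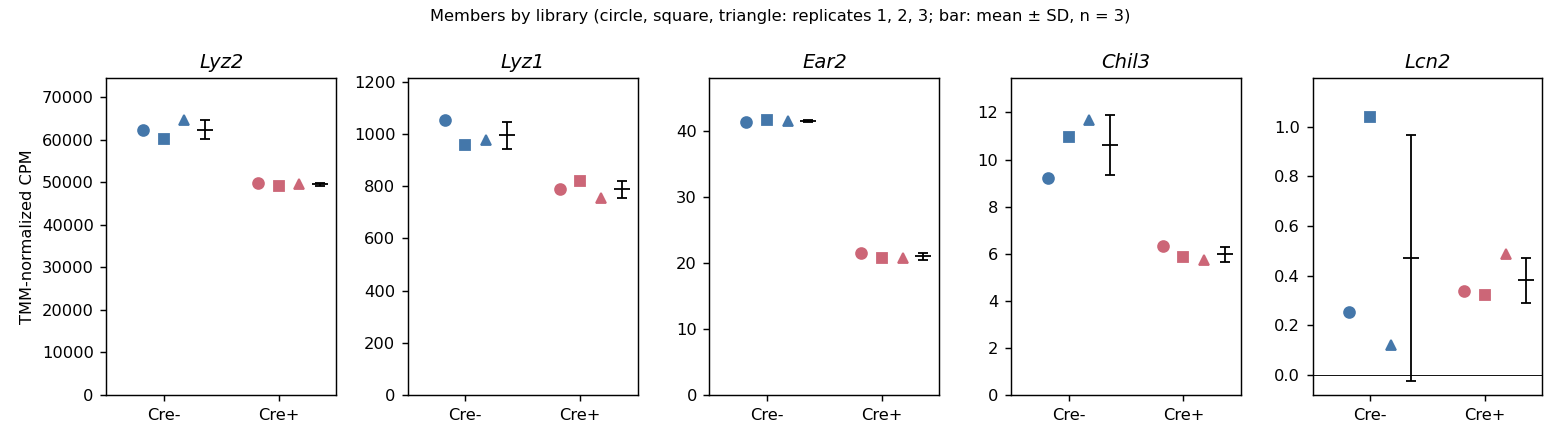
TMM-normalized CPM of Lyz2, Lyz1, Ear2, Chil3 and Lcn2 in each of the 3 Cre- and 3 Cre+ libraries, on linear axes that differ between panels, with the mean and SD of each group (n = 3) beside its points. The groups lie apart for Lyz2, Lyz1, Ear2 and Chil3, while for Lcn2 they overlap and Cre- replicate 2 lies alone at 1.04 CPM.

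Lyz1 was lower in the Cre+ libraries by a proportion close to that of Lyz2. It had 91719, 88349 and 87234 counts in the Cre- group against 86402, 76489 and 76117 counts in the Cre+ group. On the CPM scale these were 1055, 956 and 975 in Cre- and 788, 822 and 755 in Cre+ microglia, with no overlap. The log2 fold change was -0.34 (SE 0.05), and the Cre+ mean was 79.2% of the Cre- mean. Per length, Lyz1 was at 774 ± 47.8 FPKM in Cre- cells (SD, n = 3), where Lyz2 was at 46542 ± 1396 FPKM. For each 100 counts of Lyz2 there were 1.70, 1.59 and 1.51 counts of Lyz1 in the Cre- libraries and 1.58, 1.67 and 1.52 in the Cre+ libraries. This ratio overlapped between the groups, with means of 1.60 ± 0.0942 and 1.59 ± 0.0738 (SD, n = 3 each). How many reads of Lyz2 were counted on its near copy was not tested. With the counts of both genes added together, the log2 fold change was -0.33 (SE 0.03). Of the 8 other genes of the lysozyme family that were listed, 0 passed the filter, and the highest, Lyzl4, had 33, 20 and 36 counts in the Cre- and 31, 52 and 16 counts in the Cre+ libraries.

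**Figure D2:**
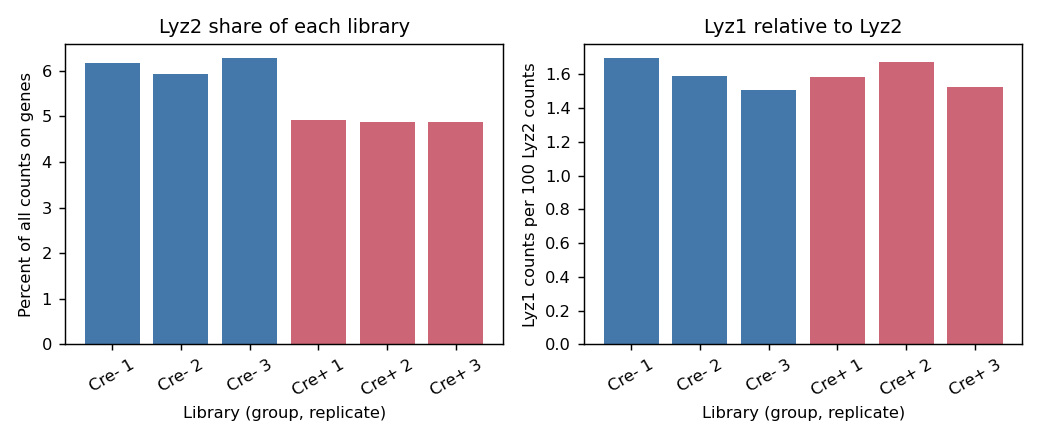
Left, the percent of all counts on genes that fell on Lyz2 in each of the 6 libraries, and right, Lyz1 counts for each 100 Lyz2 counts, with Cre- libraries in blue and Cre+ libraries in red. The Lyz2 share is 5.92% to 6.28% in Cre- and 4.88% to 4.93% in Cre+ libraries, whereas the ratio of Lyz1 to Lyz2 overlaps between the groups.

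Ear2 showed the largest fold change of the 5 genes. Its counts were 3587, 3846 and 3708 in the Cre- libraries and 2360, 1925 and 2087 in the Cre+ libraries. This was 41.2, 41.6 and 41.5 CPM against 21.5, 20.7 and 20.7 CPM, so that the libraries of each group lay close together and the groups far apart. The Cre+ mean was 50.6% of the Cre- mean. The log2 fold change was -0.98 (SE 0.07), and 26 of the 11429 genes tested had a more negative one. Per length, Ear2 was at 56.6 ± 0.597 FPKM in Cre- cells (SD, n = 3), below Lyz1.

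The relatives of Ear2 were lower than Ear2 per length, with 13.4 FPKM for Rnase4 as the highest mean in Cre- cells. Of the 15 other listed genes of the ribonuclease A family found in the tables, 5 passed the filter, and for all 5 the Cre+ libraries lay below the Cre- libraries without overlap, which was the case for 11.7% of all genes tested. Their median log2 fold change was -0.70, against 0.00 for all genes tested. These 5 are not separate observations, since Ear1 is a close copy of the member Ear2 and the spans of Rnase4 and Ang overlap. Rnase2a passed the filter with 4 libraries, the 3 Cre- ones and Cre+ replicate 3. The list was drawn up with earlier results of these data known, so nothing further is read from the 5. The other 10 of the 15 stayed under 1 CPM. Among them the groups overlapped for all but Rnase1. It had 2, 6 and 4 counts in the Cre- and 0, 0 and 1 counts in the Cre+ libraries. Only Ear1 passed the threshold, at 3.67, 3.59 and 5.47 CPM in the Cre- group against 2.19, 2.50 and 2.90 CPM in the Cre+ group. Cre- replicate 3 was the highest and the other 2 Cre- libraries were nearer to the Cre+ group. Ear1 fell by 0.75 on the log2 scale (SE 0.20, edgeR adjusted p = 0.039). The call was lost in 4 of the 6 refits with 1 library removed. Without Cre- replicate 3, Ear1 had a log2 fold change of -0.52 (edgeR adjusted p = 0.19, which ranged from 0.00856 to 0.190 over its alternatives).

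Ear6 had 1.74, 1.74 and 2.38 CPM in the Cre- group against 1.12, 1.25 and 1.23 CPM in the Cre+ group, with a log2 fold change of -0.70 (SE 0.21, edgeR adjusted p = 0.074). Rnase2a had 1.38, 1.19 and 1.33 CPM in the Cre- group against 0.657, 0.322 and 1.18 CPM in the Cre+ group. Cre+ replicate 3 thus lay next to the Cre- group. The log2 fold change of Rnase2a was -0.85 (SE 0.33, edgeR adjusted p = 0.18). The levels of Ear6 and Rnase2a were close to the filter. The remaining ribonucleases are more distant relatives. Rnase4 had a log2 fold change of -0.19 (SE 0.08, edgeR adjusted p = 0.23) and the angiogenin gene Ang one of -0.20 (SE 0.14, edgeR adjusted p = 0.48). Ear1 gave 8.63 to 13.2 counts for each 100 of Ear2 in the Cre- libraries and 10.2 to 14.0 in the Cre+ libraries, and the ranges overlapped. How reads that match several of these copies were counted is not given in the sources used here, so the separate values of Ear1, Ear2 and Ear6 are uncertain to that extent. With the counts of Ear1, Ear6, Ear10, Ear14 and the Ear pseudogenes added to those of Ear2, the log2 fold change was -0.95 (SE 0.06).

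Chil3 was present at a low level and was also lower in Cre+ microglia. It had 801, 1013 and 1046 counts in the Cre- group against 695, 547 and 576 counts in the Cre+ group. On the CPM scale this was 9.21, 11.0 and 11.7 in the Cre- libraries and 6.34, 5.88 and 5.71 in the Cre+ libraries. The groups did not overlap, and Cre- replicate 1 was the nearest to the Cre+ group. The log2 fold change was -0.83 (SE 0.12), and 41 genes had a more negative one. The Cre+ mean was 56.3% of the Cre- mean.

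The closest copy, Chil4, was near the limit of detection, with 32, 19 and 23 counts in the Cre- group against 18, 7 and 11 counts in the Cre+ group. Chil1, a chitinase-like gene known from astrocytes and macrophages, had 13, 16 and 22 counts in the Cre- group against 3, 2 and 3 counts in the Cre+ group. Both lay below the filter and were not tested. The 2 other genes of the family that passed it showed smaller differences. Chid1, which binds sugars, had a log2 fold change of 0.00 and the lysosomal chitobiase Ctbs one of 0.05, each with a standard error of 0.08, and for both the groups overlapped.

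Lcn2 was barely expressed. Its counts were 22, 96 and 11 in the Cre- libraries and 37, 30 and 49 in the Cre+ libraries, or 0.253, 1.04 and 0.123 CPM against 0.338, 0.322 and 0.486 CPM. Only Cre- replicate 2 exceeded 1 CPM, the groups overlapped, and the gene was left out by the filter. The log2 ratio of the group means was -0.30 and turned to 1.02 without Cre- replicate 2, so that 1 library decided its sign. Among the listed genes of the lipocalin family and the Lcn2 receptors, Slc22a17, a receptor of Lcn2, and Rbp4, the plasma carrier of retinol, passed the filter. They had log2 fold changes of -0.07 (SE 0.09) and 0.02 (SE 0.08), and 0 of these genes passed the threshold.

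Per length, the order of the 5 genes in Cre- cells was Lyz2, Lyz1, Ear2, Chil3 and Lcn2, and the order in Cre+ cells was the same. The steps between neighbours were larger than the spread of the libraries in each group. The SD of the log2 CPM between libraries of one group was 0.024 for Ear2, 0.037 for Lyz2, 0.068 for Lyz1, 0.14 for Chil3 and 1.13 for Lcn2. All 4 members tested passed the threshold in edgeR's fit, each lower in Cre+ cells, where 5.07% of all genes tested passed it in either direction and 2.56% were lower. Their groups did not overlap, as was the case for 24.0% of all genes tested. The choice of the list fixes these counts, and nothing is read from them.

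**Figure D3:**
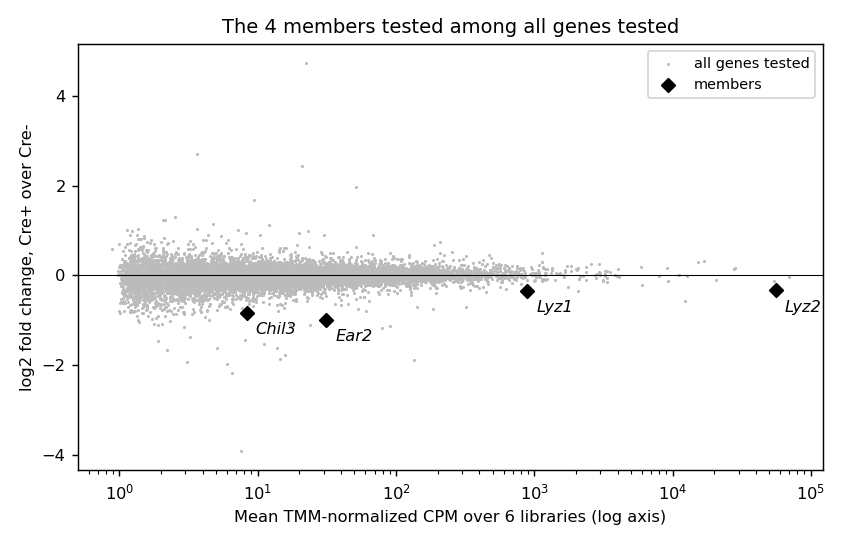
The log2 fold change of Cre+ over Cre- microglia against the mean TMM-normalized CPM over 6 libraries (log axis) for the 11429 genes tested (grey), with the 4 members that passed the filter as black diamonds. Lyz2 and Lyz1 lie at -0.33 and -0.34 among abundant genes, and Ear2 and Chil3 lie at -0.98 and -0.83 among genes of lower level.

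The libraries were searched for the genes of other antimicrobial proteins and of cells that make the 5 proteins. Over the 5 antimicrobial families together, 85 genes other than the members were found in the tables, and 65 of them stayed under 1 CPM in every library. Of the 20 that were tested, 4 fell and 0 rose past the 0.05 threshold of edgeR's test, or 20% against 2.56% of all genes tested that were called lower and 5.07% called in either direction. The median log2 fold change was -0.20, 15 genes were on the negative side, and the groups lay apart for 9, all lower in Cre+ cells, as they did for 11.7% of all genes tested. The genes that fell were Slpi, Wfdc17, Fcna and Ear1, a close copy of the member Ear2. Without Cre- replicate 3, Cre+ replicate 2 or Cre+ replicate 3, the count of genes called was 2. The lists were drawn up with earlier results of these data known, so nothing further is read from these shares.

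Slpi, an inhibitor of leukocyte proteases with antibacterial activity, was at 20.9, 15.1 and 19.0 CPM in the Cre- group against 11.6, 10.9 and 12.3 CPM in the Cre+ group. It fell by 0.66 on the log2 scale (SE 0.11, edgeR adjusted p = 0.0028). Wfdc17, a small secreted protein of macrophages and microglia with a whey acidic protein domain, was at 656, 668 and 729 CPM against 536, 584 and 558 CPM, and fell by 0.29 on the log2 scale (SE 0.05, edgeR adjusted p = 0.0021). Both kept their side of the threshold under every alternative. Fcna, or ficolin A, a lectin that starts the complement cascade, fell by 0.32 on the log2 scale (SE 0.09, edgeR adjusted p = 0.041). Its call was lost in 5 of the 6 refits with 1 library removed. The call of Fcna was also lost without a filter on expression (edgeR adjusted p = 0.15) and with filterByExpr (edgeR adjusted p = 0.080). Lgals3, or galectin 3, the most abundant other gene of these families, was at 12733 ± 633 CPM in the Cre- group and 12698 ± 221 CPM in the Cre+ group (SD, n = 3 each). Its log2 fold change was -0.0040 (SE 0.04) and its sign turned with the scaling. Mpeg1, the pore-forming perforin 2 of macrophages, had a log2 fold change of 0.24 (SE 0.11, edgeR adjusted p = 0.26).

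**Figure D4:**
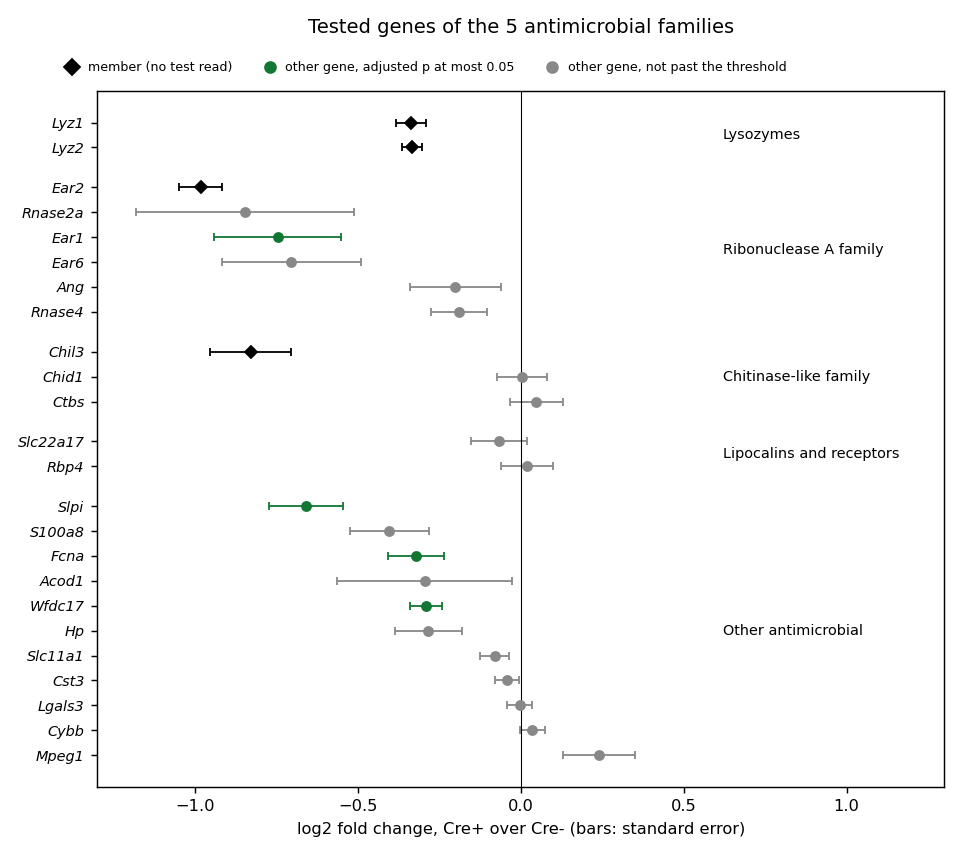
The log2 fold change of Cre+ over Cre- microglia with its standard error for each gene of the 5 antimicrobial families that passed the filter, with members as black diamonds, other genes past the threshold in green and the rest in grey. The 5 other ribonucleases all lie left of 0, whereas Chid1, Ctbs, Slc22a17 and Rbp4 lie within 0.07 of 0.

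Granulocyte and monocyte genes were measured because such cells carry several of the 5 transcripts. Of 15 neutrophil markers, 11 stayed under 1 CPM in every library, and the granule and surface genes Mpo, Ly6g and S100a9 had at most 4 counts in any library. The summed level of the list was 43.5 to 49.4 CPM in Cre- and 41.8 to 48.2 CPM in Cre+ libraries, most of it from Mmp8, whose log2 fold change was 0.06. The next most abundant, S100a8, an antimicrobial calcium-binding protein, was at 10.9, 8.82 and 9.17 CPM in the Cre- group against 7.12, 7.84 and 6.91 CPM in the Cre+ group, lower without overlap, with a log2 fold change of -0.40 (SE 0.12, edgeR adjusted p = 0.072). Of the 4 neutrophil markers tested, 2 were on the negative side and 0 passed the threshold. The part of S100a8 and the other markers in the results was not tested. Among 6 eosinophil markers, 5 stayed under 1 CPM. The defining granule genes were at or near 0, with at most 14 counts of Prg2 and 4 of Epx. The summed level of this list, 75.9 to 87.4 CPM in Cre- and 89.8 to 95.5 CPM in Cre+ libraries, came almost wholly from Siglecf, which alveolar macrophages and cells grown with GM-CSF also express. Of 7 monocyte markers, 6 stayed under 1 CPM, and the sums were 2.43 to 3.06 CPM and 1.79 to 2.60 CPM. Low sums of neuron markers (3.45 to 4.22 CPM against 2.51 to 2.61 CPM) and of fibroblast and mural cell markers (1.84 to 2.83 CPM against 0.972 to 1.23 CPM) were lower in the Cre+ libraries without overlap, with all 8 fibroblast and mural genes under 1 CPM. Their part in the results was not tested. The sums of the astrocyte (44.3 to 48.2 CPM against 42.8 to 48.5 CPM), oligodendrocyte (83.8 to 93.1 CPM against 81.0 to 85.8 CPM) and endothelial markers (46.2 to 51.0 CPM against 47.1 to 51.4 CPM) overlapped between the groups. Of the 3 endothelial markers tested, 2 were on the negative side and 1, Flt1, rose past the threshold, which 5.07% of all genes tested passed. Of the microglial genes, Trem2 was at 1573 to 1657 CPM in Cre- and 1585 to 1655 CPM in Cre+ libraries, and Csf1r at 426 to 487 CPM and 453 to 476 CPM. Over the 12 microglial markers the sums were 7139 to 7359 CPM in Cre- and 7169 to 7441 CPM in Cre+ libraries, and overlapped. Of the 8 tested, 4 were on the negative and 4 on the positive side. The integrin Itgam alone passed the threshold, or 12.5% against 5.07% of all genes tested. Itgam was higher in Cre+ cells, by 0.18 on the log2 scale (SE 0.05, edgeR adjusted p = 0.046). The fractalkine receptor Cx3cr1 had a log2 fold change of 0.44 (SE 0.15, edgeR adjusted p = 0.11) with overlapping groups.

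Ear2 and Chil3 are often read as markers of alternative activation and of macrophages grown with GM-CSF, and the other genes listed for these programmes moved in both directions. Of 15 other alternative activation genes, 8 stayed under 1 CPM in every library. The log2 fold change was negative for 3 of the 7 tested and positive for 4. Past the threshold, 0 fell and 2 rose in Cre+ cells, where 2.56% and 2.50% of all genes tested did. The mannose receptor Mrc1 rose from 56.7 ± 1.37 CPM to 78.4 ± 7.90 CPM (SD, n = 3 each), with a log2 fold change of 0.47 (SE 0.07, edgeR adjusted p = 6.7e-04). Flt1, a receptor of vascular endothelial growth factor, rose by 0.33 on the log2 scale (SE 0.08, edgeR adjusted p = 0.025), and its call was lost in 5 of the 6 refits with 1 library removed. Fn1, or fibronectin, the most abundant of them, had a log2 fold change of 0.20 (SE 0.08, edgeR adjusted p = 0.17) and was called without a filter on expression and without Cre- replicate 1. Of 12 other genes of the GM-CSF macrophage list, 4 passed the threshold, against 5.07% of all genes tested. Ear1 and the receptor subunit Csf2ra fell, and the integrin Itgax and the lipase Lpl rose. Csf2ra had a log2 fold change of -0.29 (SE 0.08, edgeR adjusted p = 0.042), and its call was lost in 5 of the 6 refits with 1 library removed, with -0.16 without Cre- replicate 2, as well as with DESeq2 and with filterByExpr. Itgax had a log2 fold change of 0.27 (SE 0.04, edgeR adjusted p = 0.0016) and Lpl one of 0.16 (SE 0.03, edgeR adjusted p = 0.012). The call of Lpl was lost without Cre- replicate 3, at 0.14.

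For Lcn2, the genes that are induced with it by inflammatory signals through NF-κB were listed. Of 11 tested, 1 rose and 1 fell, where 5.07% of all genes tested changed. The log2 fold change was negative for 9 of the 11, with a median of -0.20. The groups lay apart for 4 that were lower and 1 that was higher, as they did for 11.7% and 12.3% of all genes tested. The interleukin 1 receptor antagonist Il1rn rose from 173 ± 21.2 CPM to 243 ± 20.2 CPM (SD, n = 3 each), with a log2 fold change of 0.49 (SE 0.08, edgeR adjusted p = 0.0013). The inhibitor Nfkbia fell by 0.20 on the log2 scale (SE 0.05, edgeR adjusted p = 0.030), and its call was lost in 4 of the 6 refits with 1 library removed. The call of Nfkbia was also lost without a filter on expression (edgeR adjusted p = 0.43) and with filterByExpr (edgeR adjusted p = 0.13). Among 10 transcription factors of myeloid cells and the clock that were tested, Cebpa, a factor of myeloid differentiation, was the one past the threshold in this fit. This was 10% of them, against 5.07% of all genes tested. The log2 fold change was negative for 8 of the 10 and positive for 2. The groups lay apart for 3 that were lower and 1 that was higher, against 11.7% and 12.3% of all genes tested. Cebpa was at 44.9 ± 6.98 CPM in the Cre- group and 32.2 ± 1.39 CPM in the Cre+ group (SD, n = 3 each) and fell by 0.48 on the log2 scale (SE 0.09, edgeR adjusted p = 0.0056). Irf8 had a log2 fold change of -0.15 (SE 0.04, edgeR adjusted p = 0.061), and it passed the threshold with DESeq2 and with Lyz2 left out of the library size.

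The sequences before the gene starts of the 5 members were read for 3 short motifs, as a description. They are RefSeq promoters on GRCm38, in windows of 250 bases before to 50 bases after the RefSeq start, printed here up to the gene start of the count tables. The motifs were AGGTCA, the core letters bound by many nuclear receptors including REV-ERBα, AGGAAGT, the core of sites of ETS factors such as PU.1, and TTNNGNAA, a loose form of the C/EBP motif. Both strands were searched, and no motif contains another. Capitals mark AGGTCA and AGGAAGT on either strand, all sequences are written along the strand of the gene, and Lyz1, Lyz2 and Chil3 are shown because they hold a match.
Lyz1, chr10:117292869-117293118, minus strand: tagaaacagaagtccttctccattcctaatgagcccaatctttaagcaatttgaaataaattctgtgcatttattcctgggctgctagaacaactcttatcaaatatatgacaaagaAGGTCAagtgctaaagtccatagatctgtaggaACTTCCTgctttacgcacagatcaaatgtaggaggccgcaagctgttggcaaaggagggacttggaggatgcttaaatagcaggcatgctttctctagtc
Lyz2, chr10:117282322-117282522, minus strand: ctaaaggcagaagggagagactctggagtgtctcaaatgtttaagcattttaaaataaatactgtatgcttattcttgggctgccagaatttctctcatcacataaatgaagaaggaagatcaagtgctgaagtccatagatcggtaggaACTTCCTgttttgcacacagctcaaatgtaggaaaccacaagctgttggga
Chil3, chr3:106167565-106167814, minus strand: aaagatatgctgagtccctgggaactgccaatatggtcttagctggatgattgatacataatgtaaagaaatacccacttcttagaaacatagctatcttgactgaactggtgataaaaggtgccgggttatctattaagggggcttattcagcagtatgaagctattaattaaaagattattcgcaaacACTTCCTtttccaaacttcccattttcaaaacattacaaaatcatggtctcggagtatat

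The Lyz1 and Lyz2 windows were identical at 249 of 298 aligned bases (83.6%). AGGTCA was found in the window of Lyz1 and in 16.3% of the 32851 promoters of the RefSeq table, and not in those of the other 4 members. Opposite this motif, the Lyz2 window has AGATCA, the substitution G3A counted from the first base of AGGTCA in Lyz1. AGGAAGT was found in the windows of Lyz1, Lyz2 and Chil3 and in 9.35% of all promoters, at the same distance from the RefSeq start in Lyz1 and Lyz2. TTNNGNAA was found in the windows of all 5 members and in 40.7% of all promoters. A match is a description of the letters and not a site of binding.

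The genes whose pattern over the 6 libraries was most like that of each member were taken from the 8442 genes of at least 5 CPM, by the root mean square difference of log2 CPM after each gene's mean was subtracted. For Lyz2 these were Hmox1, the haem oxygenase 1 gene (difference 0.019), Tbc1d13 (0.031) and Cic (0.033), where the median over all genes searched was 0.20. For Lyz1 they were Gm44250 (0.026), Safb2 (0.028) and Plbd2 (0.038). Steap3, a metalloreductase (0.082), Gm8822 (0.10) and the carbonyl reductase Cbr1 (0.12) were the nearest to Ear2, against a median of 0.51. Gm23935 (0.11), Leng9 (0.11) and the kinase Frk (0.12) were the nearest to Chil3, against a median of 0.44. The mean of Steap3 was 125 CPM without and 56.7 CPM with the recombinase, a difference as large as that of Ear2 at a higher level.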

How the data were processed

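Primary microglia of the 3 Cre- and 3 Cre+ samples were measured by bulk RNA-seq with the SMARTer Ultra Low RNA kit, which does not mark the strand, and paired reads of 150 bases. The deposited tables hold the authors' raw counts per gene on GRCm38 and, per the file headers, CPM and FPKM that follow from these counts. The deposited CPM and FPKM were recomputed from the counts and matched. The submitters' processing notes name STAR 2.7.9a, Subread featureCounts 2.0.3 and bcl2fastq. How multiply mapped reads were counted is not given in the sources used here. Of 55487 genes, 55227 matched GENCODE M21 by identifier, and 0 columns of other samples were present.

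Ribosomal RNA genes (356) were removed, those exceeding 1 CPM in 4 or more libraries were kept, and edgeR 4.0.16 (R 4.3.3) fitted its quasi-likelihood model to all 6 libraries with TMM factors. P-values were adjusted by Benjamini-Hochberg over 11429 genes, with a threshold of 0.05. CPM values in the text are TMM-normalized. Alternatives were DESeq2 1.42.0 and its size factors, limma 3.58.1 (voomWithQualityWeights), library totals, no filter, edgeR's filterByExpr, the replicate number as a block, each library left out, Lyz1 and Lyz2 summed, and Lyz2 left out of the library size. Sequences were compared with blastn 2.17.0 and biopython 1.88. The members, the gene lists and the tests were chosen with earlier results of these data known. Of each list of proteins and factors, up to 4 other genes past the threshold and the most abundant one are named, and further relatives of the members and cell type markers were named after their values were seen. Chi-square statistics per degree of freedom of 18.8 to 25.8 between libraries of one group put every pair beyond sampling noise, so none counts as a duplicate.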

Additional observations from a re-analysis of the deposited data

How the results depend on the processing

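Lyz1, Lyz2, Ear2 and Chil3 kept a negative log2 fold change in all 16 alternatives, with ranges of -0.37 to -0.26, -0.36 to -0.25, -1.0 to -0.90 and -0.93 to -0.75. In the alternative with Lyz1 and Lyz2 summed, the value of the sum, -0.33, stands for both, and Lyz1 has none of its own. Chil3 moved furthest without Cre- replicate 1. Without a filter on expression the values were -0.26 for Lyz1, -0.25 for Lyz2 and -0.90 for Ear2, where the median of all genes shifted by 0.078. With filterByExpr they were -0.29 for Lyz2 and -0.94 for Ear2, with a median shift of 0.043, and with paralogs summed, chosen after seeing the data, -0.95 for Ear2. The Lyz2 share differed by -1.33 to -1.15 percentage points with 1 library left out. The log2 ratio of Lcn2 ranged from -0.76 to 1.02 with 1 library left out, and its depth of 11 to 96 counts limits any statement on it.

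The number of genes called, 579 in the main fit, was 886 with DESeq2, 1528 without a filter (851 higher and 677 lower) and 321 to 435 with 1 library left out. The count of other antimicrobial genes called, 4, was 2 to 4 with 1 library left out. With the replicate number as a block, 430 genes were called, and the log2 fold changes were -0.34 for Lyz1, -0.33 for Lyz2, -0.98 for Ear2 and -0.82 for Chil3. Under the block the calls of Fcna (adjusted p = 0.074), Nfkbia (0.074), Csf2ra (0.058) and Flt1 (0.050) were lost. The deviations of same-numbered libraries correlated at 0.0067, -0.033 and -0.056, and those of differently numbered ones at -0.036 to 0.070. No pairing by number was seen, which does not show that the samples were unpaired. The sign of 3 genes near 0 turned. Chid1 was at -0.00070 with DESeq2's size factors, -0.00078 with its test, -0.0052 with Lyz2 left out of the library size and -0.024 to 0.036 with 1 library left out. Rbp4 was at -0.049 to 0.081 with 1 library left out. Lgals3 was at 0.0064 on library totals, 0.074 without a filter, 0.038 with filterByExpr and -0.043 to 0.030 with 1 library left out. The causes were not tested.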
